A study of Mus musculus with 14 samples.

Results

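Strong AGO2 groups found only in wild type are clusters of reads listed in 1 AGO2 library, with no counterpart listed in the other. AGO2 was precipitated with the WAKO 2D4 antibody from bone marrow derived macrophages of C57BL/6 mice. The RNA recovered with it was sequenced by PAR-CLIP, with 1 library per genotype. The wild type library came from cells labelled ELAVL1f/f, which carry the floxed Elavl1 alleles and no Cre. The other, labelled ELAVL1f/f, LysM-Cre and called knockout here, came from cells that also carry Cre in the Lyz2 locus, so both genotypes share the floxed alleles and only 1 carries Cre. LysM-Cre acts in cells of the myeloid lineage, and the share of cells in which it had recombined is not given in the labels. Marrow was cultured in 20% L929 cell medium, for 6 days by the growth protocol and 7 days by the series design, a difference that could not be settled. The same 2 genotypes gave 4 mRNA libraries each, and small RNA libraries were made for wild type numbers 1 and 2 and knockout numbers 3 and 4.

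A group is a cluster of overlapping reads with its position, sequence, read count, T-to-C conversions, annotation class and gene. Members were the groups of 50 or more reads in the wild type library that no group of the knockout library overlapped by 1 nt or more on the same strand. There were 775 members among 66451 wild type groups, or 9.30% of the 8332 wild type groups of 50 or more reads. The other 7557 of these were overlapped and serve as the comparison below. Members were thus chosen by the wild type read count and the lack of a knockout overlap, so both are given as descriptions, and with 1 library per genotype no difference between the libraries could be tested. The knockout library listed 85458 groups, none under 5 reads. A conversion was listed in 40.0% of these groups, against 58.9% of all wild type groups. A position without a knockout group may still have held reads there. Their number is not known, since the sources used here do not say how groups were called.

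AGO2 is the protein that carries a miRNA and, guided by the seed (bases 2 to 8 of the miRNA), binds complementary sites, most often in 3′ UTRs. There it recruits TNRC6 scaffold proteins, which bring in the deadenylation machinery. ELAVL1, also called HuR, binds U-rich and AU-rich stretches of 3′ UTRs, is known to stabilise many mRNAs, and can compete or cooperate with AGO2 on the same 3′ UTR. PAR-CLIP feeds cells with 4-thiouridine. Once crosslinked to protein this base is read as C, so T-to-C conversions mark RNA that touched a protein.

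Seeds of the miRNAs most abundant in the wild type small RNA libraries are shown first, because the 3′ UTR members are read against them. The 20 most abundant were taken, of which 17 were found in the RefSeq table (build GRCm38), in 12 seed families. Printed below is 1 miRNA for each family that matched 4 or more 3′ UTR members, with the seed in capitals.

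mmu-miR-27b-3p: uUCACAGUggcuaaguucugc
mmu-miR-23a-3p: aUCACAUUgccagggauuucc
mmu-let-7c-5p: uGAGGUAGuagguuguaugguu
mmu-miR-30e-5p: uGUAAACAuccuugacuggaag
mmu-miR-103-3p: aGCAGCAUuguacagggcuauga
mmu-miR-93-5p: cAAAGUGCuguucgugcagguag
mmu-miR-24-3p: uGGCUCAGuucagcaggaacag
mmu-miR-21a-5p: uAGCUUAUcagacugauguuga
mmu-miR-146a-5p: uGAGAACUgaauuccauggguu

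A 3′ UTR member counted as a match when its own strand held, in DNA letters, ACTGTGA or CTGTGAA (miR-27), AATGTGA or ATGTGAA (miR-23), CTACCTC or TACCTCA (let-7), TGTTTAC or GTTTACA (miR-30), ATGCTGC or TGCTGCA (miR-103), GCACTTT or CACTTTA (miR-93), CTGAGCC or TGAGCCA (miR-24), ATAAGCT or TAAGCTA (miR-21), or AGTTCTC or GTTCTCA (miR-146). The other families searched were miR-99b (TACGGGT or ACGGGTA), miR-140 (CTGTGGT or TGTGGTA) and miR-342 (GTGTGAG or TGTGAGA). In each pair the first word faces bases 2 to 8 and the second faces bases 2 to 7 followed by A. The miRNAs miR-378a-3p, miR-30d-5p and miR-142-3p were among the 20 but had no entry in the table.

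Some of the 3′ UTR members of most reads that hold such a match are shown next, since these are wild type groups that hold the letters of a miRNA match and have no group listed in the knockout library. Each is written 5′ to 3′ on the strand of its transcript, with the match in capitals and the window on mm9 before it. Coordinates are those of the deposited tables, and whether they count the first base as 0 or 1 could not be settled.

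Stat5b, chr11:100644304-100644333, minus strand, miR-23: ctctttggaaacaatactcgtAATGTGAAg
Arih1, chr9:59239199-59239228, minus strand, miR-103: ctgagtatattATGCTGCttcctcaaacca
Fam33a, chr11:86937984-86938012, plus strand, let-7: taaaattctCTACCTCAacatttaaattg
4933407C03Rik, chr8:119984290-119984319, plus strand, miR-27: ctcctctgcttCTGTGAAtttggaagggcc
Papd4, chr13:93917469-93917498, minus strand, miR-30: ctatcataattcatttTGTTTACctccatc
Edem1, chr6:108806475-108806504, plus strand, miR-24: acatcctTGAGCCAtttctctgtgtgatat
Cd28, chr1:60829452-60829481, plus strand, miR-23: gtattctctgtAATGTGActgctggggaca
Rlim, chrX:101156906-101156931, minus strand, miR-27: tatttgtgaacagctACTGTGAcatg
Gtf2i, chr5:134713752-134713775, minus strand, let-7: ttccttatatttTACCTCAaattg
Maf, chr8:118227882-118227905, minus strand, miR-30: accgatgcactaaatTGTTTACtg

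Most of the members of highest read count are of another kind, short and rich in G and C. Some from intergenic sequence and introns are shown because their sequences, in part, also occur in other wild type groups. Capitals mark the longest run shared with 1 other wild type group.

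Intergenic, chr5:129286213-129286228, plus strand, 846 reads: cCGGTCTGCTCGTCCC
Intergenic, chr15:38866608-38866624, minus strand, an overlapped group of 96 reads: tCGGTCTGCTCGTCCCt
Hdac8 intron, chrX:99675134-99675153, minus strand, 481 reads: tctGGTCTGCTCGTCCCTac
Intergenic, chr14:75127385-75127406, plus strand, 484 reads: CTGAGGAATGTGGCTccccttc
Intergenic, chr8:123351809-123351829, minus strand, a member of 68 reads: agacCTGAGGAATGTGGCTtc
Intergenic, chr12:83765121-83765144, minus strand, 407 reads: aGGGGTGTAGCTCAGTTGGTAGAG
Psmd12 intron, chr11:107346337-107346363, plus strand, a weaker group of 18 reads: GGGGTGTAGCTCAGTTGGTAGAGtgca

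The chr5 group and the Hdac8 intron group each share a run of 15 nt with the same chr15 group. The chr14 member shares 15 nt with another member on chr8, and the chr12 member shares 23 nt with a group in a Psmd12 intron. These letters thus stand at more than 1 place in the tables. How reads that map more than once were placed is not given in the sources used here, and its part in the list of members was not tested.

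Most members stood near the read minimum. Their median was 64.0 reads against 109 in overlapped groups, 662 of 775 (85.4%) had under 100 reads against 45.5% of overlapped groups, and 22 had 200 or more. Together they held 61871 reads, 0.984% of the reads in wild type groups. Just inside the rule were 113 members of 50 to 52 reads, and just outside it 128 groups of 47 to 49 reads with no knockout overlap, beside 376 of that size that were overlapped. Another 8 members directly adjoined a knockout group without sharing a base.

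The share of wild type groups lacking a knockout group was lower at 200 or more reads than at 50 to 59 reads in 3′ UTRs, coding sequence, introns and intergenic sequence. Of the 3′ UTR groups, 28.7% lacked one at 50 to 59 reads, 3.95% from 100 reads up to below 200, and 1 of 998 at 200 or more. Intergenic groups went from 16.4% to 6.17% and 2.21% over the same bands. At 50 to 59 reads the 3′ UTR share therefore stood above the intergenic one, and at 200 or more reads below it. Over the bands between, intronic groups showed no steady order, with 9.24% at 60 to 79 reads and 9.76% at 80 to 99. No miRNA group of 50 or more reads lacked a knockout overlap (0 of 221, which allows a share of up to 1.36%).

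**Figure D1:**
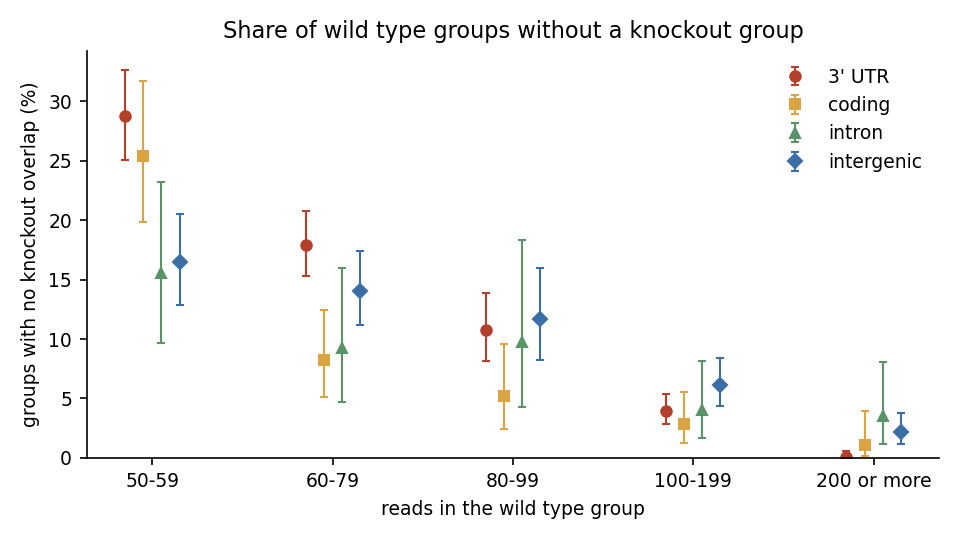
Share of wild type AGO2 groups with no overlapping knockout group (y axis, %) by the read count of the wild type group (x axis), for 4 annotation classes. Points are shares in 1 library and bars are 95% exact binomial intervals, which cover counting error only. The 3′ UTR share starts at 28.7%, the highest of the 4, and ends at 1 of 998 groups, the lowest.

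By annotation, 395 members (51.0%, 95% exact interval 47.4 to 54.5) lay in 3′ UTRs, 218 (28.1%) were intergenic, 95 (12.3%) lay in coding sequence and 50 (6.45%) in introns. The overlapped groups had 45.0% in 3′ UTRs (interval 43.8 to 46.1), 28.4% intergenic, 13.3% coding and 7.78% intronic. Against overlapped groups of 50 to 99 reads, which are closer in depth, the 3′ UTR share of members was again higher (42.9% in the overlapped groups) and the coding share lower (16.0%). The order in 3′ UTRs turned at 100 or more reads, with 34.5% of members against 46.6% of overlapped groups. It also turned, by less than the interval, when a knockout group within 50 nt counted as overlap, with 44.6% of 639 members against 45.6%. The small RNA classes (miRNA, tRNA, snoRNA, snRNA, rRNA and the like) held 8 members (1.03%, interval 0.447 to 2.02) against 4.46% of overlapped groups and 2.27% of those with 50 to 99 reads. In the knockout library 605 of 9381 groups of 50 or more reads had no wild type overlap. Of these 605, 20.0% (interval 16.9 to 23.4) lay in 3′ UTRs and 49.1% were intergenic. The classes also differed between the whole libraries. Groups of any read count in 3′ UTRs numbered 17420 of 85458 in knockout and 22109 of 66451 in wild type. Intergenic ones numbered 42709 in knockout and 23393 in wild type. The remaining members were 5 in 5′ UTRs and 4 in lincRNAs.

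**Figure D2:**
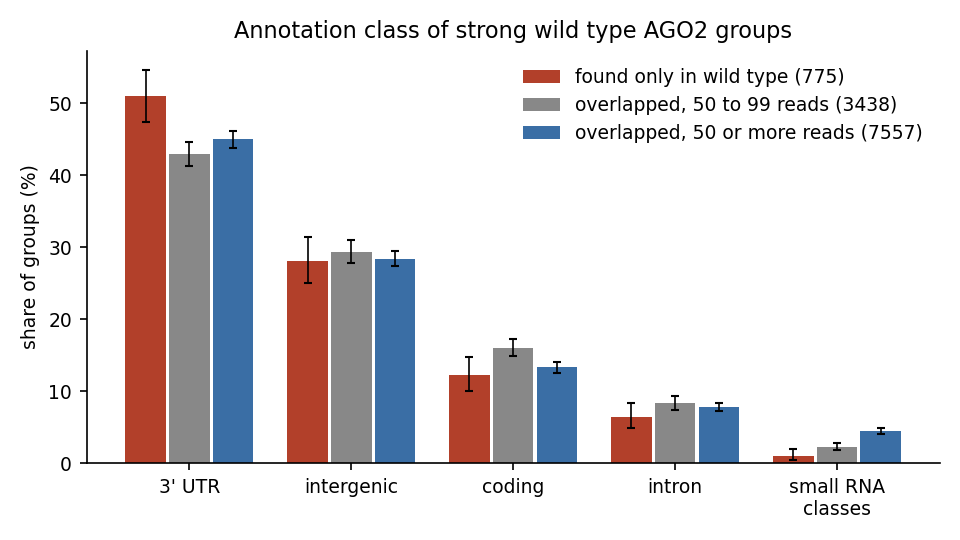
Share of strong wild type groups (y axis, %) in each annotation class (x axis), for the 775 members, the 3438 overlapped groups of 50 to 99 reads and the 7557 overlapped groups of 50 or more reads. Bars are shares in 1 library with 95% exact binomial intervals. The members stand highest in 3′ UTRs, at 51.0%, and lowest in the small RNA classes, at 1.03%.

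Members fell into 2 kinds by conversion. At least 1 conversion location was listed in 600 members (77.4%, interval 74.3 to 80.3), against 76.3% of overlapped groups. Converted members had a median length of 29.5 nt and 36.7% G and C, and 77.7% of them ended in G. In the 175 members without a conversion, contact with a protein was not marked. These had a median length of 16.0 nt and 58.8% G and C, and 29.7% ended in G. Overlapped groups split in the same way. Their medians were 29.0 nt and 39.1% G and C with a conversion, and 17.0 nt and 52.9% without. Of these overlapped groups 77.5% and 32.3% ended in G. RNase T1, the enzyme commonly used in PAR-CLIP, cuts after G; the enzyme used here is not given in the labels.

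Conversion followed annotation class. It was listed in 392 of 395 3′ UTR members (99.2%), 88 of 95 coding members (92.6%), 17 of 50 intronic members (34.0%) and 91 of 218 intergenic members (41.7%). The corresponding shares of overlapped groups were 99.3%, 95.4%, 40.3% and 41.7%. Thus a conversion was near universal among members in mature mRNA and present in a minority of those in introns and between genes, as it was in the overlapped groups.

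Within converted members the number of conversion events reached the number of reads in a large part of the groups. Events equalled reads in 330 of the 600 (55.0%), against 33.0% of all converted overlapped groups and 48.0% of those with 50 to 99 reads. A single conversion location was listed in 51.3% of converted members and in 49.8% of converted overlapped groups of 50 to 99 reads. The Lamp2 3′ UTR group is an example, with 86 events in 86 reads at 1 location. The way events were counted is not stated in the labels or headers.

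**Figure D3:**
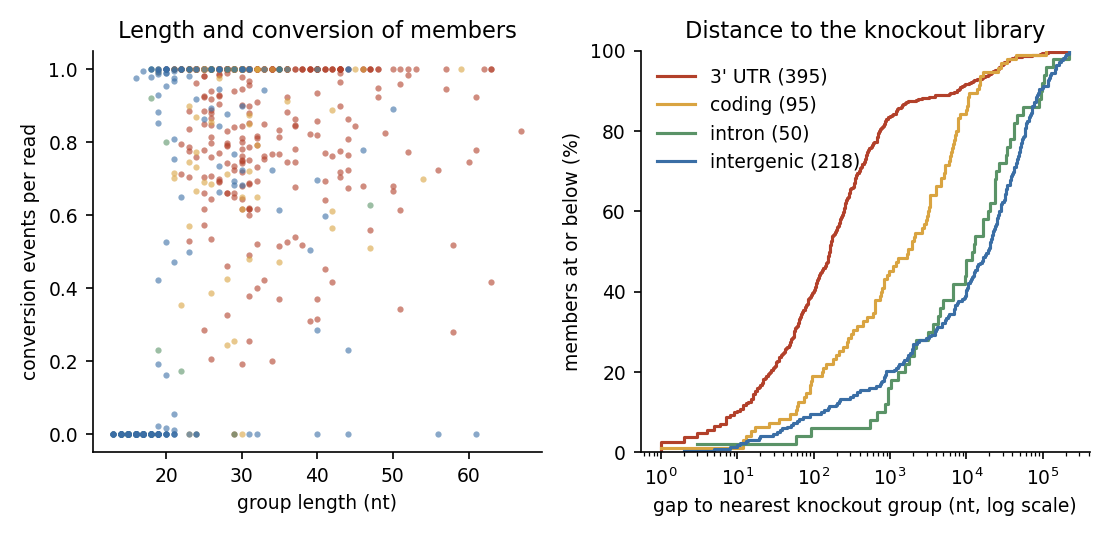
Left, length of each member (x axis, nt) against conversion events per read (y axis); right, share of members (y axis, %) whose gap to the nearest knockout group on the same strand is at or below a given length (x axis, nt, log scale, gaps of 0 drawn at 1), with colours as on the left. 3′ UTR and coding members are long and converted, many at 1 event per read, and the unconverted members are short. The 3′ UTR curve lies far to the left of the other 3, with a median gap of 161 nt.

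Members in 3′ UTRs had the smallest median gap to a knockout group of the classes given here. Their median gap to the nearest knockout group was 161 nt, and 110 of 395 (27.8%) had one within 50 nt. Median gaps were 1713 nt for coding members, 12314 nt for intronic members and 19012 nt for intergenic members, of which 14 of 218 (6.42%) had a knockout group within 50 nt. Over all classes 136 members (17.5%) had one that near. The nearest group in those 136 held a median of 21.0 reads (interval 19.0 to 29.0), with a range from 5 to 841. No member had a knockout group on the opposite strand. Gaps are given for members alone, so closeness to a knockout group is not read as particular to them.

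The knockout library also held other groups in the same 3′ UTRs. Of the 374 genes with a 3′ UTR member, 318 had at least 1 knockout group in the 3′ UTR. For the 270 of these 374 genes with 50 or more wild type reads elsewhere in the 3′ UTR, the knockout-to-wild-type ratio of those reads had a median of 0.725 (quartiles 0.524 and 0.910). For genes with an overlapped 3′ UTR group of 50 to 99 reads the ratio was 0.695 (quartiles 0.522 and 0.915). Over the whole library, the reads of all 3′ UTR groups came to 1761182 for wild type against 1507319 for knockout, and those of intergenic groups to 1388927 against 1767826. The overlapped groups of 50 to 99 reads had a median knockout-to-wild-type read ratio of 0.594 in 3′ UTRs, 0.662 in coding sequence, 1.37 in introns and 1.56 between genes.

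Single genes show the range. In Tnf the 3′ UTR held 27 wild type and 10 knockout reads outside its member, and in Zbtb7a, a transcriptional repressor, 372 and 114. In Lpl, the lipoprotein lipase that macrophages secrete, these were 10558 and 6721 reads. In Maf, a transcription factor of mature macrophages, they were 378 and 502. So in Zbtb7a and Lpl the rest of the 3′ UTR was also lower in the knockout library, and in Maf it was higher. For Tnf no direction is read, since the 10 reads leave out a knockout group of 19 reads that lay 32 nt from the member. Reads elsewhere were 0 in both libraries for 1700066M21Rik, Nol7 and Papd4, so the member was the single 3′ UTR group listed for each.

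A seed match was found in 79 of the 395 3′ UTR members (20.0%, interval 16.2 to 24.3). Overlapped 3′ UTR groups held one in 25.6% (interval 24.1 to 27.1), or 25.1% when weighted to the lengths of the members, and all wild type 3′ UTR groups in 18.2% at those lengths. Among overlapped 3′ UTR groups of 50 to 99 reads the share was 20.5%, close to that of the members. A match lay a median of 7.0 nt from the 3′ end of the member and 8.0 nt from that of an overlapped group. A match is a description of the letters and not evidence of a bound site.

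Matches to miR-27 were found in 18 members (4.56%, interval 2.72 to 7.11) and in 8.65% of overlapped 3′ UTR groups (interval 7.73 to 9.65). Among overlapped groups of 50 to 99 reads, closer to the members in depth, the share was 4.67%, so the members stood apart from the deeper groups and not from those of like depth. At the lengths of the members 8.69% of overlapped and 5.07% of all wild type 3′ UTR groups held it. Matches to miR-23 were found in 17 members (4.30% against 3.62%), to let-7 and to miR-30 in 10 members each (2.53% against 2.91% and 2.36%), to miR-103 in 6, to miR-93 and miR-24 in 5 each, and to miR-21 and miR-146 in 4 each. For these 8 families the members' interval held the overlapped share. The abundance of a miRNA did not order these counts, since miR-21 made up 46.7% and 45.6% of miRNA reads in the 2 wild type small RNA libraries and miR-27 made up 1.75% and 1.78%. In the knockout libraries numbered 3 and 4 the miR-27 share was 1.69% and 1.74%.

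In 3′ UTRs, uridine motifs were at least as common in members as in overlapped groups. TTTTT was found in 57 of 395 3′ UTR members (14.4%, interval 11.1 to 18.3) and in 13.9% of overlapped 3′ UTR groups, or 12.2% of those with 50 to 99 reads. ATTTA, the core of the AU-rich element, was found in 43 members (10.9%, interval 7.99 to 14.4) and in 9.33% of overlapped groups, or 7.38% of those with 50 to 99 reads (interval 6.10 to 8.84). Both words were searched on the strand of the group, and at the lengths of the members 13.6% and 9.64% of all wild type 3′ UTR groups held them. ELAVL1 binding was not measured here, and no match says only that these letters are not in the group.

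**Figure D4:**
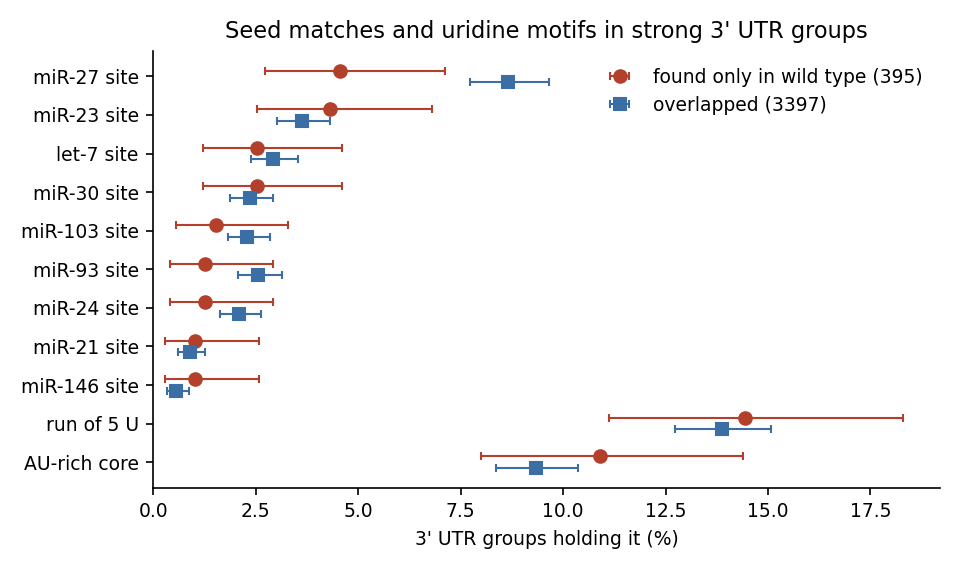
Share of 3′ UTR groups holding a 7-letter seed match or a uridine motif (x axis, %) for the 395 members and the 3397 overlapped groups; run of 5 U stands for TTTTT and AU-rich core for ATTTA. Points are shares in 1 library with 95% exact binomial intervals. The miR-27 share is 4.56% in members and 8.65% in overlapped groups of every depth (4.67% in those of 50 to 99 reads, not drawn), and the intervals of the other families overlap.

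Among the 3′ UTR members of most reads were 1700066M21Rik, with 202 reads, AW549877 with 197 and Nol7, a nucleolar protein gene, with 176. The 1700066M21Rik group (chr1:57441787-57441843) spanned 57 nt with 191 events at 2 locations, and no knockout group lay within 30762 nt. The AW549877 group (chr15:3936087-3936113) directly adjoined a knockout group of 32 reads. The Nol7 group (chr13:43498011-43498047) had 152 events and a gap of 25916 nt.

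The members with a seed match shown above had similar depth. The Stat5b group, in the gene of a transcription factor that acts downstream of cytokine receptors, had 145 reads with 139 events at 4 locations. The group of Arih1, a ubiquitin ligase, had 119 reads and 110 events, and that of Papd4, a cytoplasmic poly(A) polymerase, 110 reads and 90 events. The Rlim group, in a ubiquitin ligase gene, had 101 reads and 95 events and lay 4 nt from a knockout group of 31 reads. Of these 4, the Rlim group thus had a near neighbour in the knockout library, while the others had gaps of 865, 212 and 528 nt.

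Members named 511 genes, of which 30 held 2 members and none held 3. Fnip2, a partner of folliculin, had 2 members in its 3′ UTR, of 154 and 90 reads, 5 and 56 nt from a knockout group. Apobec1, the cytidine deaminase that edits Apob mRNA, had 144 reads in an intron, 3 nt from a knockout group of 85 reads, and 130 reads in coding sequence. Itgav, an integrin subunit, had 127 and 55 reads in its 3′ UTR, and Cmtm3 had 84 reads in each of 2 members. Lpl had 104 reads in its 3′ UTR and 59 in coding sequence, and Tet3, a 5-methylcytosine dioxygenase, 88 and 81. Large knockout groups lay beside some of them: the Itgav group of 127 reads was 17 nt from one of 485 reads, and the Tet3 3′ UTR group 15 nt from one of 673.

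Coding members are shown by 3 sequences, in which capitals mark the final base for Apobec1 and Tet3 and the miR-23 match for Tnrc6a.

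Apobec1, coding, chr6:122528877-122528902, minus strand: tttttcacaattactcttcaaacctG
Tet3, coding, chr6:83319433-83319462, minus strand: tccatgctctacacaacagcctgaacccaG
Tnrc6a, coding, chr7:130315493-130315520, plus strand: caaatacaactacaaaAATGTGAAcatg

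The Apobec1 group had 130 conversion events in 130 reads, and the Tet3 group 81 in 81. Coding members as a whole ended in G in 83.2% of cases and held a seed match in 19 of 95 (20.0%, interval 12.5 to 29.5). The share was 27.5% of overlapped coding groups and 24.0% of those with 50 to 99 reads, both inside the members' interval. Smad4, which transmits TGF-beta signals, and Pomt1, a protein O-mannosyltransferase gene, had the most reads of the coding members, 357 and 240, with no conversion. Ptchd1 had 133 reads with 133 events at 2 locations. In the 5′ UTR class Csnk1a1, casein kinase 1 alpha, had an unconverted group of 109 reads, the group of Slc35a5, a nucleotide sugar transporter, had 92 reads, and that of Skil, an inhibitor of SMAD signalling, had 89 reads and lay 1 nt from a knockout group of 8 reads.

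Intergenic and intronic members held the highest read counts. The chr5 group printed above had 846 reads and no conversion, the chr14 group 484 reads with 314 events, and the Hdac8 intron group 481 reads with 385 events at 1 location. In Apba1 and Fntb, the latter the beta subunit of farnesyltransferase, intronic groups of 322 and 300 reads had no conversion. Among members of 100 or more reads 44.2% were intergenic and 34.5% lay in 3′ UTRs, the reverse of the order over all members. The 3 lincRNA members of most reads had 410, 94 and 55 reads.

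Runs of 14 nt shared with a knockout group at another place were less frequent in members than in overlapped groups. They were found in 219 members (28.3%, interval 25.1 to 31.6) and 3552 of 7557 overlapped groups. For unconverted intergenic and intronic groups the shares were 41 of 160 (25.6%, interval 19.1 to 33.1) and 64.7%. A run of 12 nt shared with a wild type group of the small RNA classes was found in 24 members (3.10%) and 5.07% of overlapped groups. A group shorter than the run could not share it, and the median length of unconverted members was 16.0 nt against 17.0 nt.

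Of all 3148 genes with a strong wild type group, 511 (16.2%) had a member, and the lists below are read against that share. Genes of the silencing machinery were among those with members. Of 10 such genes with a strong wild type group, all 10 had an overlapped one and 4 also had a member. The 3 scaffold genes each had one: Tnrc6a in coding sequence with 66 reads, Tnrc6b in the 3′ UTR with 56 reads and 56 events, and Tnrc6c in the 3′ UTR with 57 reads and 57 events. The fourth was an unconverted intronic group of 68 reads and 14 nt in Eif2c3, which encodes AGO3. The gaps of the Tnrc6 members to a knockout group were 312, 272 and 160 nt, so none adjoined one.

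Of genes known from the literature as ELAVL1 targets, 15 had a strong wild type group, 14 had an overlapped one and 3 had a member, near the share over all genes. Tnf, the inflammatory cytokine, had 123 reads and 98 events in its 3′ UTR (chr17:35337021-35337046), 32 nt from a knockout group of 19 reads. Cdkn1a, the cell cycle inhibitor p21, had 68 reads with a gap of 55 nt, and Ccnd1, cyclin D1, had 63 reads, 22 nt from a knockout group of 51 reads. Of the inflammatory mediator genes, 2 had a strong group and both had a member. These were Tnf and Ccl3, a chemokine, whose 3′ UTR member of 50 reads held a miR-21 match and lay 7 nt from a knockout group of 20 reads. The single AU-rich element binding protein gene with a member was Zfp36l1, a relative of tristetraprolin, with 50 reads, out of 10 with a strong group.

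Macrophage identity genes had a strong wild type group in 17 cases, and 3 of them had a member, again near the share over all genes. Maf had 91 reads and 91 events in the group with its miR-30 match, Mpeg1, the pore-forming protein perforin-2, had 54 reads 32 nt from a knockout group of 21, and Cd36, a scavenger receptor, had 57 reads in coding sequence 26 nt from one of 39. Of 16 lysosome genes with a strong group, Lamp2, a lysosomal membrane protein, and Atp6v1a, a proton pump subunit, had members of 86 and 57 reads. Among the 4 type I interferon response genes with a strong group none had a member, which at the overall share is too few genes to read anything from, as are the 2 inflammatory mediators. These lists were drawn up with earlier results of the data known, and their counts are descriptions.

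The mRNA libraries were used to ask whether genes with members differed in abundance between genotypes. Library totals ran from 8160789 to 25030262 counts. Levels in CPM are counts scaled to the library's total over the genes kept for testing, with TMM factors applied. Elavl1 mRNA itself was not lower under the knockout label. It stood at 65.9, 61.3, 62.5 and 64.2 CPM in wild type and 76.8, 64.1, 64.9 and 72.4 CPM in knockout. Its counts cover the whole gene, so loss of the floxed part cannot be read from them, and each direction below is that of the libraries labelled knockout. Elavl1 held 4 AGO2 groups in each library, with 114 reads in wild type and 138 in knockout.

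Lyz2, the lysozyme gene in which the LysM-Cre allele sits, was at 9949, 10713, 15451 and 13598 CPM in wild type and 3723, 5091, 5314 and 6142 CPM in knockout, without overlap. Its log2 fold change was -1.29, with an edgeR adjusted p of 0.9999 with genotype alone and of 0.000472 with the replicate block. For Lyz2, DESeq2 with genotype alone gave an adjusted p of 1.58e-04. Its AGO2 groups held 11438 wild type and 5326 knockout reads. Its paralog Lyz1, whose reads may be shared with Lyz2, averaged 1672 ± 364 CPM and 686 ± 139 CPM (SD, n = 4), and had 71 AGO2 reads in wild type and no group listed in knockout. The Cre allele and a loss of ELAVL1 cannot be told apart in this design. The summed level of the 10 macrophage markers without Lyz2 was 9971 to 10262 CPM in wild type and 9203 to 10773 CPM in knockout. Neutrophil markers summed to 10.2 to 31.9 and 22.3 to 55.4 CPM, and those of B and T cells to at most 2.15 CPM. In bulk RNA fewer cells of a type and less RNA per cell cannot be told apart.

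Genes with members were well expressed. On the per-length RPKM scale the 498 member genes that could be matched had a median of 9.77 RPKM in wild type (quartiles 3.79 and 26.4), against 9.04 RPKM for genes with overlapped strong groups. Genes with 3′ UTR members stood at 11.5 RPKM and those with intronic members at 2.60 RPKM. The 218 genes that had a member and no overlapped strong group were lower, at 5.84 RPKM.

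No member gene was called changed. The edgeR quasi-likelihood test with genotype alone called 0 of 491 tested member genes at an adjusted p under 0.05, with a background of 0% of 14019 genes, and 0 member genes had an unadjusted p under 0.05 against 0.578% of all genes. The replicate number marks libraries that deviate together, and with it as a block edgeR called 5 genes (0.0357%), none with a member. In the blocked fit 48 member genes (9.78%) had an unadjusted p under 0.05 against 9.42% of all genes, of which 18 were higher and 30 lower in knockout, against 4.90% and 4.52% of all genes. Since 18 and 30 are 3.67% and 6.11% of the member genes, the lower share stood somewhat above the background and the higher share somewhat below it. Among the 211 tested member genes with no overlapped strong group, 4 (1.90%) were higher and 19 (9.0%) lower at that unadjusted p in the blocked fit. None of them was called, and the split was not tested. DESeq2 with genotype alone called 3 genes (0.0214%), none with a member, and no member gene had an unadjusted p under 0.05 there, against 0.778% of all genes.

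The log2 fold changes of member genes centred close to 0. Their median was -0.02 (quartiles -0.11 and 0.06), with 271 of 491 (55.2%) below 0, against a median of 0.00 and 50.4% below 0 over all 14019 genes. For the 2671 genes with an overlapped strong group the median was -0.01, with 52.4% below 0. By library number the median difference in log2(CPM + 1) of member genes was -0.04, 0.01, -0.07 and 0.04, a mean of -0.01 ± 0.05 (SD, n = 4), so its sign was not the same in all 4. Leaving out 1 library at a time moved the median between -0.09 without WT 2 and 0.03 without WT 3, and it was also above 0 (0.01) without KO 2. The shift of member genes was thus smaller than the spread between library numbers.

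**Figure D5:**
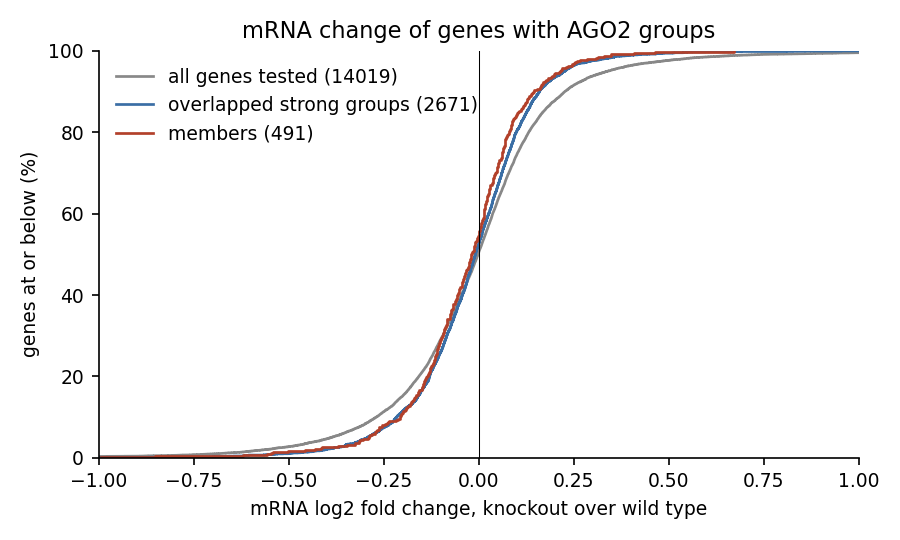
Cumulative share of genes (y axis, %) by mRNA log2 fold change, knockout over wild type (x axis, drawn from -1 to 1), for all 14019 genes tested, 2671 genes with an overlapped strong group and 491 genes with a member. The 3 curves cross 0 near the middle, at 50.4%, 52.4% and 55.2% of genes below 0.

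The member genes at the lower end of the fold changes had wide spreads. Cd36 was at 340.3, 288, 1246 and 1161 CPM in wild type and 232, 254, 812 and 677 CPM in knockout. It was lower in all 4 numbers, by -0.62 on the log2 scale (SE 0.59). The libraries numbered 3 and 4 were high in both genotypes, and the groups overlapped. Ndrg2 was at 6.09, 44.8, 13.6 and 14.3 CPM in wild type and 5.10, 14.6, 7.79 and 11.6 CPM in knockout. Its log2 fold change was -0.99 (SE 0.57) and -0.21 without WT 2. Efr3b, Calcrl, the receptor subunit for calcitonin gene-related peptide, and Rtn1, a reticulon of the endoplasmic reticulum, had log2 fold changes of -0.85, -0.61 and -0.56. None of these passed the test with genotype alone (edgeR adjusted p = 0.9999 for each). In the fit with the replicate block the edgeR adjusted p was 0.0879 for Cd36 (log2 fold change -0.535, SE 0.098) and 0.126 for Efr3b. For Ndrg2, Calcrl and Rtn1 it was 0.214, 0.250 and 0.334.

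Genes toward the upper end included C530028O21Rik, at a log2 fold change of 0.66 (SE 0.62), Csf2rb2, a receptor subunit of the IL-3 family, at 0.46, Zeb1 at 0.41 and Enc1 at 0.35 (SE 0.21). The sign of Csf2rb2 changed without KO 3 (-0.02). Enc1 was at 23.0, 18.4, 29.5 and 24.5 CPM in wild type and 26.2, 23.0, 36.3 and 35.9 CPM in knockout, higher in each number but with overlapping groups. Their edgeR adjusted p was 0.9999 for each with genotype alone and 0.250 to 0.502 with the replicate block. The members were 3′ UTR groups of 51 to 91 reads except for Zeb1, an unconverted intronic group of 82 reads.

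Genes whose members were described above lay between these ends. Tnf was at 95.2, 51.1, 71.2 and 68.2 CPM in wild type and 99.6, 58.5, 52.8 and 60.4 CPM in knockout, or -0.08 on the log2 scale (SE 0.26), and above 0 when WT 1 (0.09) or KO 3 was left out. Ccl3 averaged 156 ± 43.5 and 140 ± 32.0 CPM (SD, n = 4), and Cdkn1a 146 ± 45.4 and 184 ± 82.5 CPM. Tnrc6a averaged 114 ± 16.6 and 115 ± 19.0 CPM and Maf 863 ± 398 and 861 ± 387 CPM. In each of these 5 genes the difference between genotype means was smaller than the SD within either of them. Cdkn1a was nevertheless higher in knockout in all 4 numbers, with a log2 fold change of 0.29 (SE 0.10) and an edgeR adjusted p of 0.376 with the replicate block.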

How the data were processed

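Members, gene lists and comparisons were chosen with earlier results of these data known. AGO2 PAR-CLIP (1 library per genotype), small RNA (2 per genotype) and mRNA (4 per genotype) were measured in mouse macrophages. The authors deposited, per the file headers, read counts and RPKM per gene for mRNA, read counts per miRNA, and read and conversion counts per PAR-CLIP group. Per the submitters' processing notes, CASAVA 1.8.2, Bowtie 0.12.7 and build mm9 were used. For the group caller, the gene counter and reads that map more than once, no source used here says what was done.

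Overlap on the same strand was computed in Python 3.11.15 and checked against bedtools 2.31.1 on simulated intervals. Shares carry 95% exact (Clopper-Pearson) intervals, and medians order-statistic ones. Reads carry no molecular identifiers, so intervals cover counting error only. Gene names of groups were matched to Ensembl identifiers through the name table and RefSeq synonyms (498 of 511 member genes). The mRNA counts were tested with edgeR 4.0.16 (quasi-likelihood, TMM, filterByExpr, Benjamini-Hochberg, 14019 genes) in R 4.3.3 and with DESeq2 1.42.0. Library totals were 8160789 to 25030262 counts. Only edgeR, with and without the replicate block, was run on simulated data, which held no effect of library number. The labels do not tie numbers to animals, so a p-value measures only how these libraries vary, which may be technical. Deviations of same-number libraries from their group means correlated at 0.754, 0.797, 0.741 and 0.797, above the minimum of 0.1, so the number was fitted as a block; numbers 3 and 4 also correlated across (0.758 and 0.827).

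Genes were named by a rule: the 12 members of most reads, the 3 of most reads per class, up to 10 genes with 2 members, the 10 3′ UTR members of most reads with a seed match, Elavl1, Lyz2, Lyz1 and listed genes with a member, and called member genes with the 5 highest and 5 lowest fold changes among those averaging 1 CPM or more. Zbtb7a, Lpl and other genes given for reads elsewhere in their 3′ UTR come from these. Some items that the rule would name are not reported here. Alternatives were other read minimums, overlap definitions, seed sets, scalings, filters and left-out libraries.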

Additional observations from a re-analysis of the deposited data

Results flagged for a closer look

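Among the genes named above, 108 groups of 4 mRNA libraries were examined for a library far from the other 3, and 2 were found; chance gives about 1 in 20. Tnf, with a 3′ UTR member, had 99.6 CPM in KO 1 against 52.8 to 60.4 CPM for the remaining knockout ones, and its wild type library of the same number was also the highest, at 95.2 CPM. Zeb1, with an unconverted intronic member, had 4.43 CPM in WT 1 against 1.77 to 2.04 CPM in the other wild type libraries, and 4.33 CPM in KO 1.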

How the results depend on the processing

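The number of members was 2789 at a read minimum of 30, 113 at 100 and 639 with a knockout group within 50 nt counted as overlap. At a minimum of 100 the share in 3′ UTRs was 34.5%, in introns 10.6%, in coding sequence 8.85%, intergenic 44.2%, with a conversion 62.8% and with a seed match 10.6%, the median events per read were 0.785 and the median length 21.0 nt. Counting a knockout group within 50 nt as overlap gave 44.6% in 3′ UTRs, 31.9% intergenic, 73.4% with a conversion and a median length of 26.0 nt. Converted members alone gave 65.3% in 3′ UTRs, 2.83% in introns, 15.2% intergenic, 19.7% with a seed match and a median length of 29.5 nt. The seed match share was 4.26% with the 10 most abundant miRNAs and 9.94% with bases 2 to 8 alone. The count of changed mRNA genes was 5 with the replicate block and 3 with DESeq2, and 0 under every other setting run, including each library left out. The median mRNA log2 fold change of member genes was -0.01 with the replicate block, and with 1 library left out it ran from -0.085 to 0.030; the cause was not tested. The other alternatives, 47 of the 72 run, stayed within the spread or interval of the value reported or, for counts, within 1.5 times of it.

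With 1 PAR-CLIP library per genotype there is no spread between samples, and 113 of the 775 members had 50 to 52 reads. Groups under 5 reads are not listed. The knockout label rests on the labels, since Elavl1 mRNA was not lower.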
